A study of Mus musculus with 46 samples.

Results

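H3.3 was followed from mouse embryonic fibroblasts to day 4 of their induction towards hematopoietic cells, by comparing the H3.3 ChIP-Seq library labelled MEF with the library labelled D4. These are 2 of the 46 samples of the series, chosen by their labels, and their peak lists held 52862 and 108179 peaks, together 161041 of the 1502717 peaks listed for all libraries. The study collected chromatin while MEFs were reprogrammed to pluripotent cells or transdifferentiated to hematopoietic cells, and profiled H3.3 and methylated H3. The question addressed here is where H3.3 appeared, disappeared or widened by day 4.

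The MEFs came from mouse embryos carrying an IRES-EGFP cassette at Oct4, and the study's methods state that cells positive for any of a panel of hematopoietic surface markers were removed by sorting. The MEF library is labelled day 0 of SLBR induction and the D4 library day 4, where SLBR stands for the retrovirally delivered factors Scl (Tal1), Lmo2, Bmi1 and Runx1. The induced cells were grown on inactivated OP9 stromal cells, a mouse marrow stromal line, in medium with hematopoietic cytokines that included SCF, IL3 and FLT3L. Neither library was sorted at collection per its label, and whether OP9 chromatin entered the D4 library was not stated. The 4 factors were delivered together to a bulk culture, so a change in every cell and a change in a fraction of the cells cannot be told apart. Each time point was 1 library with no replicate, and all differences below are therefore between these libraries, without a test.

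H3.3 is a variant of histone H3 that is placed into chromatin outside of DNA replication. The HIRA complex places it at transcribed genes and their promoters, and DAXX with ATRX places it at silent repeats. Because a nucleosome with H3.3 marks a place where older histones were exchanged, broad H3.3 over a gene body is known to accompany strong transcription.

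The letters that the delivered factors read are shown first, because some new peaks of day 4 lay over them. RUNX proteins recognise TGTGGT. Scl and its partners bind E-boxes such as CAGATG and CAGCTG. All letters were searched on both strands, so RUNX letters on the other strand are printed as ACCACA and the former E-box as CATCTG. The following are promoters of 4 hematopoietic genes, 250 bases before to 50 after the gene start, that had no MEF peak and lay under a D4 peak, read from the mm9 genome on the plus strand, with those letters in capitals.
Tal1, chr4:114728781-114729080: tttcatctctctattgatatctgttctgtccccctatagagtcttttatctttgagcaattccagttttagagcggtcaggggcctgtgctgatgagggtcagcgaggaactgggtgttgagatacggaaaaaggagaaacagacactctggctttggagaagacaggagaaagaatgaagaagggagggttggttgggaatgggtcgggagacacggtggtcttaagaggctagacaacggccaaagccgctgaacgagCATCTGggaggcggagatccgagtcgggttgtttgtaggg
Klf1, chr8:87425577-87425876: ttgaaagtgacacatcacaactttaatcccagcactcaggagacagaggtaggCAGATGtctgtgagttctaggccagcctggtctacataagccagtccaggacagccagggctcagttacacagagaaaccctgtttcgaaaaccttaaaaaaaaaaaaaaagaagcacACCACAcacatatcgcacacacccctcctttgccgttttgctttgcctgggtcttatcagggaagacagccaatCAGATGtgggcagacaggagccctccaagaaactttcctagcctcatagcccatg
Lcp1, chr14:75530658-75530957: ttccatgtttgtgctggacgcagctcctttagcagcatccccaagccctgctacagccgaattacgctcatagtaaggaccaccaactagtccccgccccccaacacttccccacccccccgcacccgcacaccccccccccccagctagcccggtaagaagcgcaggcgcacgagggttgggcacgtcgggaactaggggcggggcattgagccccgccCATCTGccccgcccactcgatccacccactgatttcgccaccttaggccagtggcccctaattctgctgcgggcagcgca
Itga4, chr2:79095333-79095632: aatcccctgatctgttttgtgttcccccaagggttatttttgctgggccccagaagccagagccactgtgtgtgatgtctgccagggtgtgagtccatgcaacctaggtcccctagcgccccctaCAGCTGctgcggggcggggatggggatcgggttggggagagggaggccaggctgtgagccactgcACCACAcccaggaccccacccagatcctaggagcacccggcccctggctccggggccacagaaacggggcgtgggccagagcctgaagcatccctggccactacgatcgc
These 4 were chosen because they hold the letters. The promoters of Ikzf2, Irf8, Spn, Selp and Plek also lay wholly under a D4 peak and hold none of them. A match is a description of the letters and does not show that a factor was bound. Of all 22238 promoters of the same 300 bases, 15.2% held the RUNX letters, 15.2% held CAGCTG and 15.1% held CAGATG. The share holding any of these letters is larger than each of these values and was not counted. The promoters printed here can therefore not be set against the single shares.

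Inside genes of blood regulators, new peaks also lay over RUNX letters. These 4 windows are the central 200 bases of D4 peaks that touched no MEF peak, one for each of Elf1, Meis1, Mecom and Runx3, on the plus strand of mm9 with the RUNX letters in capitals.
Elf1, chr14:79972616-79972815: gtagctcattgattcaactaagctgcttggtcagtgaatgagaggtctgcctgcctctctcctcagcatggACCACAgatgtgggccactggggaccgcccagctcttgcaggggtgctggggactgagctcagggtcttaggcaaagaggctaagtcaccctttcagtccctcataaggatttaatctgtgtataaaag
Meis1, chr11:18784642-18784841: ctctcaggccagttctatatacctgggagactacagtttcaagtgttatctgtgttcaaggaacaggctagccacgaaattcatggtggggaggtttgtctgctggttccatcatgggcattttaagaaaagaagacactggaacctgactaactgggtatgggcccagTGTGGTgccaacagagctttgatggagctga
Mecom, chr3:30000361-30000560: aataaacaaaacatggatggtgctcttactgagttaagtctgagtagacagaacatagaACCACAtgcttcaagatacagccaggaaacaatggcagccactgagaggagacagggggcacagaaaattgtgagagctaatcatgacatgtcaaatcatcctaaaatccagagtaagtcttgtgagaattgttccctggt
Runx3, chr4:134715011-134715210: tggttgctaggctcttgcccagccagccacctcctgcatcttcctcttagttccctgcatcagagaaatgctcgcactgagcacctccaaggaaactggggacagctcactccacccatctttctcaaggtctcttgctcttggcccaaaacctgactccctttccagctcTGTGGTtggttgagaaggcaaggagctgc
They were selected because they hold the letters, and they are not typical: of 214 new D4 peaks inside 45 genes of the hematopoietic and delivered lists, 33 (15.4%) had RUNX letters in the central 200 bases, against 20.01% of the stretches of new signal apart from MEF peaks across the genome.

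The H3.3 libraries differed in enrichment before any locus is considered. MEF had 46.7 M tags with 7.64% of them in peaks, and D4 had 63.7 M with 37.2% in peaks. A second fibroblast library of the same series, labelled D0 and taken at the start of the pluripotency experiment, had 27.0 M tags, 19.1% of them in peaks, and 89727 peaks. D0 lay between MEF and D4 in the share of tags in peaks and in covered length (130 Mb), so it is given beside the main values. The sorted cKit+ and cKit- cells at the end of transdifferentiation had 1.65% and 2.31% of tags in peaks. How far the efficiency of the immunoprecipitation contributes to the differences was not tested, and with 1 library at each time point efficiency and time cannot be told apart.

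By day 4, H3.3 covered 267 Mb of the genome, 4.65 times the 57.4 Mb of MEF. Of the MEF peaks, 44398 (84.0%, 95% Wilson interval 83.7 to 84.3) overlapped a D4 peak by at least 1 base, and 8464 did not. Of the D4 peaks, 29985 (27.7%, interval 27.5 to 28.0) overlapped a MEF peak, and 78194 were new. In length, 50.6 Mb was shared, which was 88.1% of the MEF total, while 216.5 Mb was gained and 6.86 Mb was lost. The fibroblast pattern at day 0 was thus largely contained in the wider pattern of day 4. Intervals here and below cover counting error only.

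The repeat with equal numbers of peaks kept the 52862 D4 peaks with the highest normalised tag count, the number of tags in a peak scaled to 10 M per library. Then 76.1% of MEF peaks overlapped a D4 peak, 48.7% of D4 peaks overlapped a MEF peak, and D4 still covered 3.94 times the length of MEF. Peaks gained numbered 27106 and peaks lost 12631. Because the normalised tag count of a peak grows with its width, this choice keeps the widest D4 peaks.

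The MEF peaks that were lost were narrow and held few tags. Their median width was 0.5 kb, with 73.0% at the smallest width the peak caller gives, and their median normalised tag count was 5.68, against 0.752 kb and 8.89 for the MEF peaks that were kept. Per length they were closer, with a median of 10.7 tags per kb for lost and 12.1 for kept peaks, and their median fold over input was higher, 2.81 against 2.58. Across 4 equal groups of MEF peaks ordered by normalised tag count, 64.8%, 81.7%, 91.6% and 97.9% were kept, from the lowest group to the highest. New D4 peaks were narrow as well, with a median of 0.895 kb and 9.57 tags, whereas D4 peaks over a MEF peak had a median of 3.36 kb and 47.9 tags. Of the D4 peaks wider than 10 kb, 3196 lay over a MEF peak and 114 did not.

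Peaks were wider in D4. The median peak width was 0.647 kb in MEF and 1.34 kb in D4, and 2.79 kb in D4 with equal numbers. Peaks wider than 10 kb numbered 93 in MEF, 711 in D0 and 3310 in D4, and they held 2.498% of the covered length in MEF and 24.3% in D4. The widest single peak was 61.1 kb in MEF and 218.6 kb in D4. The median tag density inside peaks was 11.8 tags per kb in MEF and 10.9 in D4. A listed peak had to pass the tag threshold of the peak caller, 24 tags in MEF and 30 in D4, which limits how low this density can be. In the length covered in both libraries the density was 13.4 tags per kb in MEF and 16.4 in D4.

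**Figure D1:**
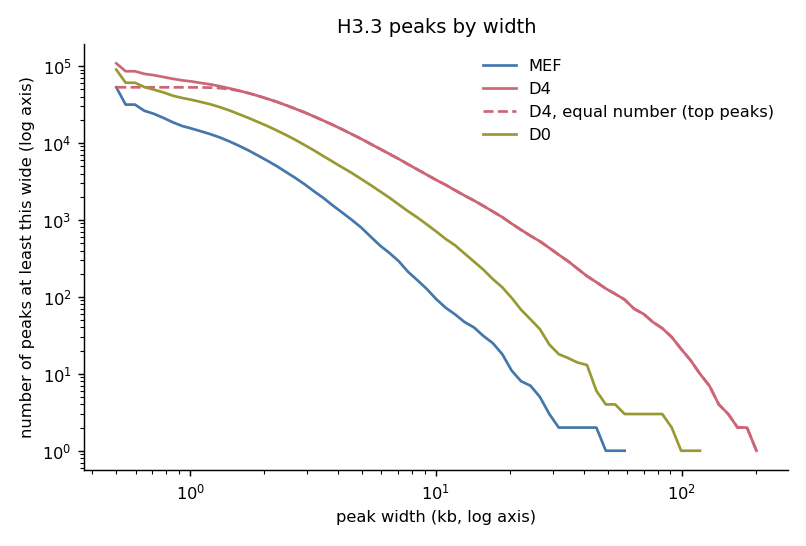
The number of H3.3 peaks at least as wide as the value on the x axis (kb, log axis) is plotted on a log y axis for MEF, D4, D4 with the number of peaks set equal to MEF, and D0. The D4 line lies above MEF and D0 at every width, with 3310 peaks wider than 10 kb against 93 in MEF, and at the wide end the line for equal numbers runs on top of the D4 line.

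To measure widening at the same place, peaks less than 1 kb apart were joined into domains within each library, and overlapping MEF and D4 domains were treated as one. Of 27600 such places with H3.3 in both libraries, D4 was wider in 25957 (94.0%) and MEF in 1225. The median width was 1.00 kb in MEF and 3.81 kb in D4, the median of the D4 to MEF ratio was 3.16, and 72.6% of the places were at least 2-fold wider in D4. With equal numbers of peaks, a choice that keeps the widest D4 peaks, D4 was wider in 97.9% of 24060 places, with a median ratio of 3.34. Of the gained length, 54.3% lay in domains that held a MEF peak, and 45.7% lay apart from them. The first share was 62.8% with equal numbers, 49.3% without joining, 47.1% for peaks at or above the median tag count and 29.0% for a fold over input of at least 3, so whether more length was added around MEF domains or apart from them depended on the setting.

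The fibroblast libraries also differed from each other in width. With D0 in the place of D4, 74.0% of the shared places were wider than in MEF, with a median ratio of 1.62. With D0 in the place of MEF, D4 was wider in 81.7%, with a median ratio of 1.76. The D4 library was thus wider than either fibroblast library, by a smaller factor against D0. In the shared length MEF had 13.4 tags per kb, 2.54 times its input, and D4 had 16.4 tags per kb, 3.66 times its input, whereas the gained length held 13.3 tags per kb in D4.

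The 20 widest domains of day 4 measured 120.8 to 273.5 kb. The first, chr8:11186741-11460267, ran for 273.5 kb over Col4a1 and Col4a2, the neighbouring genes of basement membrane collagen, and Rab20, where MEF peaks covered 96.3 kb. Tead1, a transcription factor through which YAP acts, lay in a domain of 233.4 kb with 64.2 kb covered in MEF. Domains over Zmiz1, a transcriptional coregulator, and over Crim1, a transmembrane protein that binds BMPs, with Fez2 followed, at 226.2 and 223.9 kb. Cald1, which encodes the actin-binding protein caldesmon, lay in one of 190.4 kb with 123.7 kb covered in MEF. Col5a1, a fibrillar collagen gene, lay in one of 166.2 kb. Others of the 20 lay over Mbnl2, Nxn, Mical2, Spnb2, Fndc3b, Asap1, Fat1, Timp2 with Cyth1, Hmga2, Lpp, Tns1 and Trio. One domain of 173.3 kb, chr15:61869183-62042474, overlapped no protein-coding gene, and 36.9 kb of it was covered in MEF. None of the 20 widest D4 domains was without H3.3 in MEF.

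The widest MEF domains lay over Myh9, a non-muscle myosin gene, with 89.8 kb together with Apol8, and over Hmga2, a chromatin protein of embryonic cells, with 54.1 kb. Among the next widest were domains over Frmd8 with 52.7 kb, over Actn1, an actin cross-linker, with 40.9 kb, one without a protein-coding gene with 40.03 kb, and one over Col1a1, the main collagen of fibroblasts, with 32.2 kb. All of these were covered in D4 over their whole length. At Hmga2 the D4 domain measured 128.4 kb.

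A protein-coding gene was called bound where peaks covered at least 250 bp of the gene and the 1 kb before its start. Of 22238 genes, 11433 (51.4%) were bound in MEF and 15751 (70.8%) in D4. Both libraries bound 11240 genes, 4511 (20.3%) were gained by day 4, and 193 (0.868%) were lost. With equal numbers of top peaks, 3126 genes (14.1%) were gained and 534 (2.4%) were lost, and all 3126 were among the 4511. At least 2-fold more tags in D4, after adding 5 tags to each value, were found for 14058 genes (63.2%) and at least 2-fold fewer for 178 (0.8%), or 12361 (55.6%) and 478 (2.15%) with equal numbers. Since most genes held more H3.3 in D4, each list below is set beside the median of all genes, which was 1.62 on the log2 scale, and 1.32 with equal numbers. That median includes 6294 genes bound in neither library, whose own median was 0. Among genes bound in either library the median was 2.16, and 1.96 with equal numbers, which is the nearer measure for lists with most members bound. A gene already bound in MEF could not be gained, so the share of a list that was gained depends on the share bound in MEF.

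Genes bound in both libraries were covered more fully by day 4. D4 covered more of the gene in 11025 (98.1%) of them, with a median of 6.74% of the gene covered in MEF and 39.4% in D4. Genes covered over at least 50% of their length numbered 729 in MEF and 5262 in D4. Where MEF already covered at least 80% of the gene the median log2 difference was 0.40, against 2.42 where MEF covered less than 10%. Gained genes were covered far less, with a median of 2.29 kb, 14.1% of the gene and 27.7 tags in D4.

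The position of the signal over the gene differed between the fibroblast libraries and D4. For 9886 genes of at least 5 kb that were bound in both, the last 250 bp before the start lay under a peak in 23.8% of genes in MEF, 26.4% in D0 and 78.9% in D4, where it was the highest point of the profile. In the middle of the gene the values were 7.90%, 19.7% and 35.1%, and at the end 15.4%, 32.1% and 47.8%. MEF and D0 were highest further upstream, at 29.4% and 38.4%, and lower at the start itself, a dip that the D4 profile did not have. In the 3635 gained genes of this length, a D4 peak lay at the start in 50.6%, in the middle in 10.8% and at the end in 20.6%. Over all gained genes, 3279 (72.7%) had a D4 peak within 1 kb of the start.

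**Figure D2:**
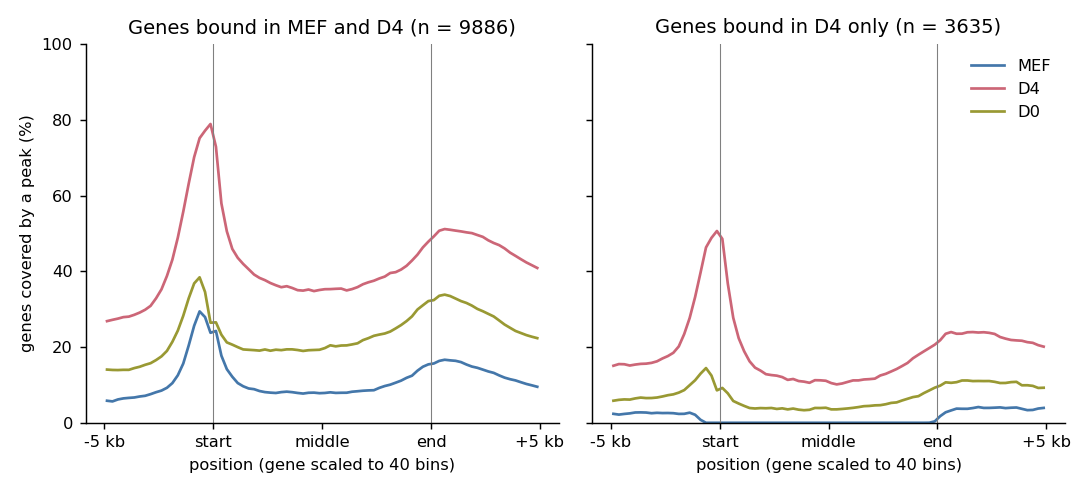
The share of genes covered by an H3.3 peak (%) is plotted from 5 kb before the gene start to 5 kb after the gene end, with genes of at least 5 kb scaled to 40 bins, for MEF, D4 and D0. In genes bound in MEF and D4 (left, n = 9886) the D4 line has its maximum of 78.9% just before the start, and in genes bound in D4 only (right, n = 3635) it reaches 50.6% there.

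Starts of genes were also counted on their own. A peak lay within 1 kb of the start of 6876 genes (30.9%) in MEF and 13294 (59.8%) in D4. By length, promoters held 8.32% of MEF peaks and 5.26% of the gained length, and introns 47.0% and 54.9%. Genes held 67.8% of MEF length and 70.1% of the gained length, against 38.4% of the genome, and 52.3% of the lost length.

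Of the delivered factors, Tal1 (the Scl gene, a master regulator of blood formation) and Lmo2 (its bridging partner) were listed at 0 in MEF and D0. In D4, Tal1 (chr4:114729031-114744360) had 4 peaks over 4.16 kb with 112 tags, and Lmo2 (chr2:103798143-103822035) had 3 peaks over 3.54 kb with 56.1 tags. Of the annotated length of Lmo2, 62.5% overlaps other protein-coding annotation, and peaks in that part cannot be assigned to Lmo2 alone. Bmi1, a Polycomb protein of stem cells, held 0.500 kb with 6.10 tags in MEF, 0.430 kb in D0 and 5.07 kb with 74.0 tags in D4. Runx1, required for the emergence of blood stem cells, was already broadly covered at day 0, with 51.5 kb and 671 tags in MEF, 66.8 kb in D0 and 88.8 kb with 1261 tags in D4. All 4 genes were above both fibroblast libraries, but Runx1 was only 0.90 above MEF on the log2 scale, less than the median of all genes.

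Retroviral copies made from cDNA lack introns, and reads from them can map to the exons of the mouse genes. Per the study's methods the Scl copy was of mouse and the Lmo2 copy of human origin, and their wording leaves the origin of Runx1 and Bmi1 unclear. Reads above a set number of mismatches were dropped. How far a human copy adds reads to the mouse exons was not tested. The peak on the last exon of Tal1 held 52.0 tags per kb, with input 2.28 times the median of D4 peaks. The peak at the Tal1 start, whose promoter is printed above, held 12.3 tags per kb with input at 0.94 times the median. At Lmo2 all 3 peaks overlapped exons, of which those over 216 and 466 bp of exon held 29.7 and 23.4 tags per kb with input at 1.25 and 1.84 times the median, and the remaining one, over 778 bp of exon, held 9.89 tags per kb at 1.09 times. Most Runx1 peaks lay in introns, and the one with the densest tags, 30.8 per kb, covered 792 bp of exon with input at 1.71 times the median. At Bmi1 all 3 D4 peaks overlapped exons, by 477, 479 and 753 bp, and held 14.3 to 14.9 tags per kb with input at 1.08 to 1.12 times the median. H3.3 on vector copies and on the genes themselves cannot be told apart at the exon peaks, the gain at Bmi1 included.

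**Figure D3:**
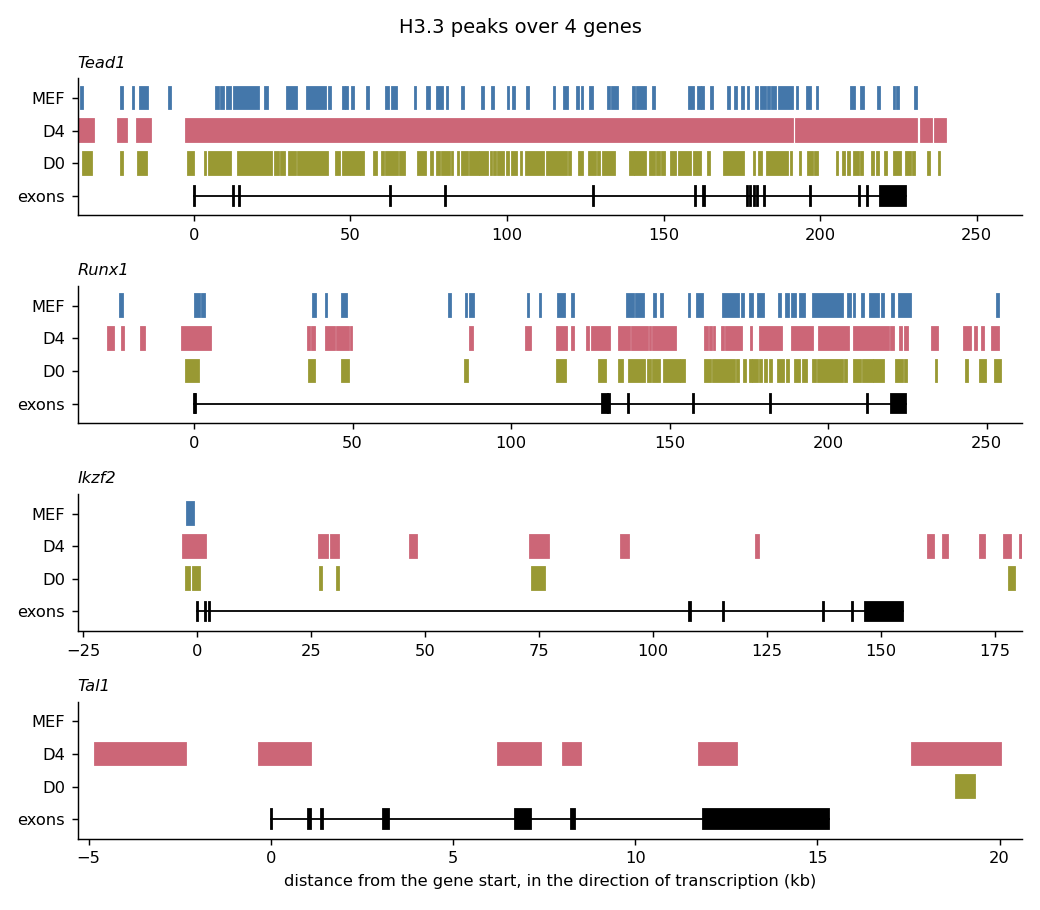
H3.3 peaks of MEF, D4 and D0 are drawn as boxes over the exons of Tead1, Runx1, Ikzf2 and Tal1, with distance from the gene start in kb in the direction of transcription. D4 peaks fill Tead1 almost end to end, add length over Runx1, and stand at 4 places in Tal1, where MEF and D0 have none, while over Ikzf2 MEF has a single peak before the start and D4 has peaks along the gene.

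Hematopoietic transcription factors were mostly bound before induction. Of 32 members, 24 were bound in MEF, 25 in D0 and 30 in D4. The 6 gained genes (18.8%, beside 20.3% of all genes) were Ikzf1, Ikzf2, Ikzf3, Klf1, Irf8 and Ets2, and none was lost. The median share of the gene covered was 4.22% in MEF, 14.2% in D0 and 33.8% in D4. The median log2 difference was 2.25, beside 1.62 for all genes and 2.16 for genes bound in either library. Gata1 and Gfi1b, regulators of red cells and platelets, had no peak in either library.

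Ikzf2, the lymphoid regulator Helios, held 0.242 kb in MEF, just under the limit of 250 bp, 5.39 kb in D0 and 14.6 kb with 209 tags in D4. Klf1, the erythroid factor that switches on adult globin, was listed at 0 in both fibroblast libraries and held one D4 peak of 3.12 kb with 36.6 tags over its promoter. Ikzf1, the lymphoid regulator Ikaros, held 0.647 kb and 6.28 tags in D4 and was no longer bound with equal numbers. These gains were thus of unequal size, and 3 of the 6 were also bound in D0.

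Among the factors bound at both times, Etv6, which maintains blood stem cells in marrow, went from 37.0 kb and 470 tags in MEF to 190.8 kb and 2621 tags in D4, with 59.8 kb in D0. Meis1, a partner of HOX proteins in blood stem cells, went from 5.69 kb to 50.7 kb with 26.2 kb in D0. Runx3 went from 1.16 kb and 12.2 tags to 19.4 kb and 245 tags, with 1.51 kb in D0, so that its D4 value stood far above both fibroblast libraries. Gata2, a factor of blood progenitors, held 1.70 kb in MEF, 6.997 kb in D0 and 13.3 kb in D4. Erg, an ETS factor of stem cells, was the exception against MEF, with 102.7 tags in MEF, 80.3 in D4 and 50.2 with equal numbers. Its peaks had ordinary input. In D0 it held only 14.5 tags over 1.13 kb, so its D4 value lay between those of the fibroblast libraries.

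Genes of hematopoietic surface and signalling proteins were gained in a larger share. Of 39 members, 17 were bound in MEF, 23 in D0 and 31 in D4, and 14 (35.9%, beside 20.3%) were gained, of which 7 were also bound in D0. With equal numbers 10 were gained, beside 14.1% of all genes, and Cd34, a marker of progenitors, was lost. Their coverage in D4 remained small, with a median of 7.67% of the gene, below the 14.1% of all genes, and a median log2 difference of 1.95. The list also counts Hmga2, a chromatin protein and not a surface or signalling protein, which was bound in MEF, D0 and D4.

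Kit, the receptor for SCF, was listed at 0 in MEF and held 0.500 kb in D0 and 3.56 kb with 43.0 tags in D4. Ptprc, which encodes the pan-leukocyte protein CD45, was at 0 in both fibroblast libraries and held a single stretch of 0.675 kb in D4. Laptm5, a lysosomal protein of blood cells, held 3.96 kb with 49.3 tags in D4, and Itga4, the alpha chain of the integrin that binds VCAM1, 4.11 kb with 44.96 tags, and both were at 0 in MEF and D0. Lcp1, the leukocyte actin bundler whose promoter is printed above, held 1.65 kb with 18.6 tags. Fcgr3, an Fc receptor of myeloid cells, held 0.500 kb with 5.14 tags in MEF, 4.36 kb in D0 and 5.32 kb with 246 tags in D4. The members not bound in D4 included Csf3r, Cd48, Slamf1, Pf4, Emr1, Tyrobp and Rac2.

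In the sorted cKit+ cells, gained genes were bound less often than genes bound at both times and more often than genes bound at neither. Of the 4511, 915 (20.3%) were bound in cKit+ cells and 962 (21.3%) in cKit- cells. In cKit+ cells 31.0% of all genes were bound. The share was 52.2% of the genes bound in both MEF and D4, and 1.57% of the 6294 genes bound in neither. The cKit+ list was short, with 28076 peaks over 17.7 Mb, which limits these shares.

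D0 bound 2585 (57.3%) of the gained genes, and 1926 genes, 8.66% of all genes, were bound in D4 and in neither fibroblast library. By length, 32.0% of what D4 gained lay under D0 H3.3, against 5.09% of the genome, and 71.6% of what MEF and D4 shared. Peaks of H3K4me3, a mark of promoters, in D0 covered 14.7% of the gained and 34.4% of the shared length. For H3K36me3, a mark of transcribed gene bodies, the values were 21.3% and 19.8%, beside 6.00% of the genome. The gained length was thus covered by a fibroblast mark of gene bodies to a similar extent as the shared length.

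Endothelial genes, which share regulators with early blood, went from 18 to 21 bound of 25, with a median log2 difference of 1.84. The 3 gained genes (12%, beside 20.3%) were Sox17, Sox7 and Icam2, none of them bound in D0. With equal numbers 1 was gained, beside 14.1% of all genes. Flt1, a VEGF receptor, held 7.37 kb in MEF, 4.83 kb in D0 and 54.3 kb in D4, and its 636 tags were the most of the list.

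The fibroblast programme kept its H3.3 and was covered more fully by day 4. Of 34 genes of the fibroblast matrix, 33 were bound in MEF and 33 in D4. The median share of the gene covered was 41.1% in MEF, 65.1% in D0 and 98.1% in D4, and the median log2 difference was 1.14, below that of all genes. Col5a1 went from 94.6 kb and 1186 tags to 153.5 kb and 2718 tags, with 140 kb in D0. Loxl2, a collagen cross-linking enzyme, went from 816 to 2571 tags. Fbn1, the microfibril protein fibrillin, held 43.4 kb in MEF and 111 kb in D4, but 141 kb in D0, so that its D4 value was below that of one fibroblast library.

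Lum, a small proteoglycan gene of connective tissue, was the member bound in MEF only, with 1.41 kb and 15.2 tags in MEF and 0 in D4 and D0. Pdgfra, a receptor on mesenchymal cells, held 90.2 tags in MEF and 104 in D4, and Postn 13.9 and 16.6. Both were among the members with the smallest differences.

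Of 25 mesenchymal transcription factors, 23 were bound at both times, with 24.7% of the gene covered in MEF and 66.3% in D4, and a median log2 difference of 1.40. Tead1 went from 63.7 kb and 831 tags to 227.7 kb and 3971 tags, with 133 kb in D0, and Tbx15, a factor of limb and skeletal mesenchyme, from 33.1 to 710 tags. Of 23 contractile genes and targets of YAP and SRF, all were bound in D4 and Cnn1, a smooth muscle calponin, was gained, with 0 in MEF and 89.2 tags in D4. Their median coverage went from 70.9% to 100%, with 85.8% in D0, and the median log2 difference was 1.17. Cald1 went from 1705 to 4397 tags.

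Signalling and AP-1 genes were mostly bound at day 0. All 25 genes of TGF-beta and BMP signalling were bound at both times, with a median log2 difference of 2.00 and coverage of 11.7% and 61.5%. Smad4, the common partner of the SMAD proteins, went from 9.10 to 450 tags, and Tgfbr2, a receptor for TGF-beta, from 133 to 1221. Of 19 JAK-STAT genes 18 were bound in MEF and 19 in D4, with Tyk2 gained and a median log2 difference of 2.05. The 12 AP-1 genes went from 51.6% to 100% of the gene covered, Batf3 was gained, and the median log2 difference was 1.32.

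Chromatin and cell cycle genes were gained in shares of 10% to 22.7%, beside 20.3% of all genes. In the Polycomb and cell cycle lists most members were already bound in MEF, and every member that was not was gained. All 22 genes of Polycomb and the INK4-ARF locus were bound in D4 and 17 in MEF (22.7% gained, median log2 difference 2.23), and Suz12, a core subunit of PRC2, went from 0 to 160 tags. Of 10 genes for H3.3 and its chaperones, Atrx was gained (10%, median log2 difference 1.95), and Hira, which encodes the chaperone for transcribed genes, went from 44.9 to 187 tags. All 29 cell cycle genes were bound in D4 and 24 in MEF (17.2% gained, median log2 difference 2.02). Of 21 interferon response genes 11 were bound in MEF and 17 in D4, with 7 gained (33.3%) and Rsad2, an antiviral enzyme listed with 5.25 tags in MEF, lost. With equal numbers 4 were gained and 2 lost, beside 14.1% and 2.4% of all genes. The median log2 difference was 1.34 with all peaks, below that of all genes.

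Markers of other cell types were checked beside these lists, where 20.3% of all genes were gained, and 14.1% with equal numbers. Of 17 stromal and adipocyte genes that OP9 cells could bring, 12 were bound in MEF and 16 in D4, with a median log2 difference of 1.66. The 4 gained genes (23.5%), Adipoq, Plin1, Cfd and Lepr, were bound in neither MEF nor D0, and held 8.19, 25.3, 6.71 and 10.8 tags in D4. The values of Adipoq, Cfd and Lepr were below 14.9, the lowest normalised tag count of a D4 peak kept with equal numbers. Fabp4, an abundant gene of fat cells, had no peak in MEF or D4. The part of OP9 chromatin in the D4 values was not tested. Of 18 neuronal genes 8 (44.4%) were gained, a larger share than of the hematopoietic surface list, with a median log2 difference of 1.84, and 3 were gained with equal numbers. Of 14 liver genes 2 were gained, and none with equal numbers. Of 20 housekeeping genes 17 were bound in MEF and 20 in D4, with a median log2 difference of 1.84.

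**Figure D4:**
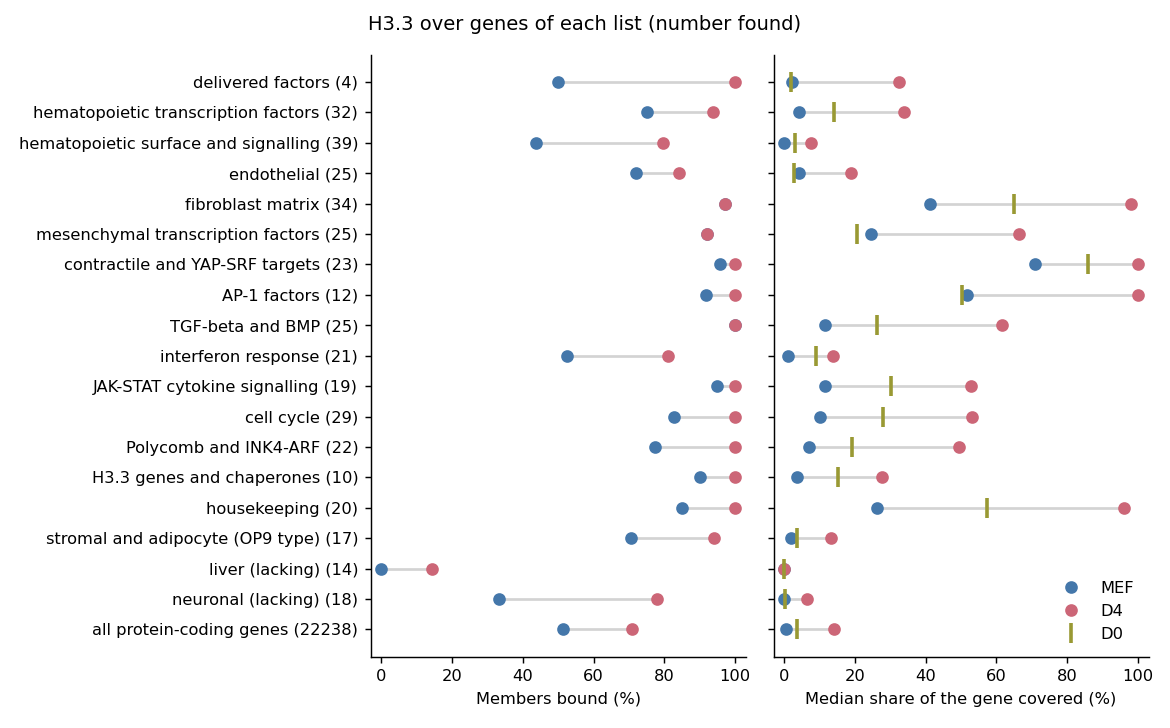
For each gene list, with the number of members found in brackets, the left panel plots the share of members bound (%) and the right panel the median share of the gene covered (%) in MEF and D4, with D0 as a tick on the right. D4 lies at or to the right of MEF in every list on both panels, the fibroblast matrix list moves from 41.1% to 98.1% of the gene covered, and the neuronal list moves from 33.3% to 77.8% bound.

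The genes with the most D4 tags among those without a MEF peak were Baz1a, Sh3bp2, Gnl2, Rnf111, Parvb and Hook3. Baz1a, a subunit of chromatin remodelling complexes, held 43.9 kb and 491 tags. Gnl2, a nucleolar GTP-binding protein, held 27.6 kb and 409 tags. Rnf111, a ubiquitin ligase that promotes TGF-beta signalling, held 35.4 kb and 408 tags, and Parvb, an adaptor of integrin adhesions, 29.8 kb and 404 tags. All 6 were covered in D0 as well, by 6.43 to 17.8 kb, and thus were not without H3.3 in fibroblasts.

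Of the 6 lost genes with the most tags, 4 stood on input of at least 3 times the median of MEF peaks and 2 did not. Sfi1, a centrosome protein gene with 999 tags in MEF and 0 in D4 and D0, had 9 MEF peaks whose median input was 14.9 times the library median. Zdhhc22 (39.9 tags) and Gm10807 (27.3 tags) stood on input of 6.40 and 6.02 times the median, and Gm525 (42.9 tags) on 3.02 times. C130026I21Rik had 199 tags over 24 MEF peaks with a median input of 1.35 times, and Wfdc2, a secreted protease inhibitor, had 24.6 tags on input of 1.59 times the median. Smo, the Hedgehog signal transducer, went from 624 to 87.4 tags, with a main MEF peak on input of 21.8 times the median, while its covered length went from 3.20 to 8.11 kb. Tcte2, with 1401 tags in MEF and 776 in D4, had its main MEF peak on input of 24.4 times the median. Heatr7b1 went from 173 to 35.5 tags on input of 4.07 times. Peaks with input more than 3 times the median made up 178 of the MEF peaks and held 2.34% of the tags in peaks.

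The genes with the largest increase were long genes already bound at day 0. Lpp, a protein of focal adhesions, went from 67.0 to 478 kb and from 911 to 6640 tags, with 168 kb in D0. Trio, a guanine nucleotide exchange factor, went from 59.2 to 282 kb, Fndc3b, a membrane protein with fibronectin domains, from 58.8 to 284 kb, and Atxn1, a transcriptional repressor, from 54.996 to 312 kb. Rbms3, an RNA-binding protein gene, went from 63.3 to 309 kb. Gm20388 and Fgfr2 also met the rule, with annotated spans of 4435 and 3009 kb that include other genes, and are not described further.

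Sequence letters were counted in windows of 500 bp at the centre of shared, gained and lost stretches and in windows 5 kb away. In the gained stretches apart from MEF peaks (n = 73855), 42.3% held the RUNX letters against 33.0% of their flanks. In the shared stretches (n = 35392) the values were 36.4% and 33.3%, and in the lost (n = 8945) 32.0% and 32.6%. The gained stretches with no D0 peak held the RUNX letters in 43.9% of windows and those over a D0 peak in 39.1%. Across 4 equal groups ordered by the D4 normalised tag count the shares were 39.4%, 39.9%, 44.5% and 45.6%. Letters with the same bases in another order were near their flanks, with 30.0% against 29.2% for TGGTGT and 24.2% against 22.8% for GTTGTG. Within windows of under 40% GC the RUNX shares were 40.3% and 30.1%, and over 55% GC they were 34.9% and 30.3%.

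AP-1 letters (TGANTCA) were above their flanks in gained and shared stretches alike, with 22.9% against 13.4% and 22.0% against 13.2%, and with 17.3% against 13.6% in lost ones. The E-box CAGCTG was at 25.2% against 19.0% in gained and 28.2% against 20.8% in shared stretches, and CAGATG at 36.2% against 34.0% in gained ones. The ETS letters ACTTCC were at 29.3% against 26.2%. The GATA letters AGATAA were below their flanks in the gained stretches, with 25.003% against 27.9%.

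**Figure D5:**
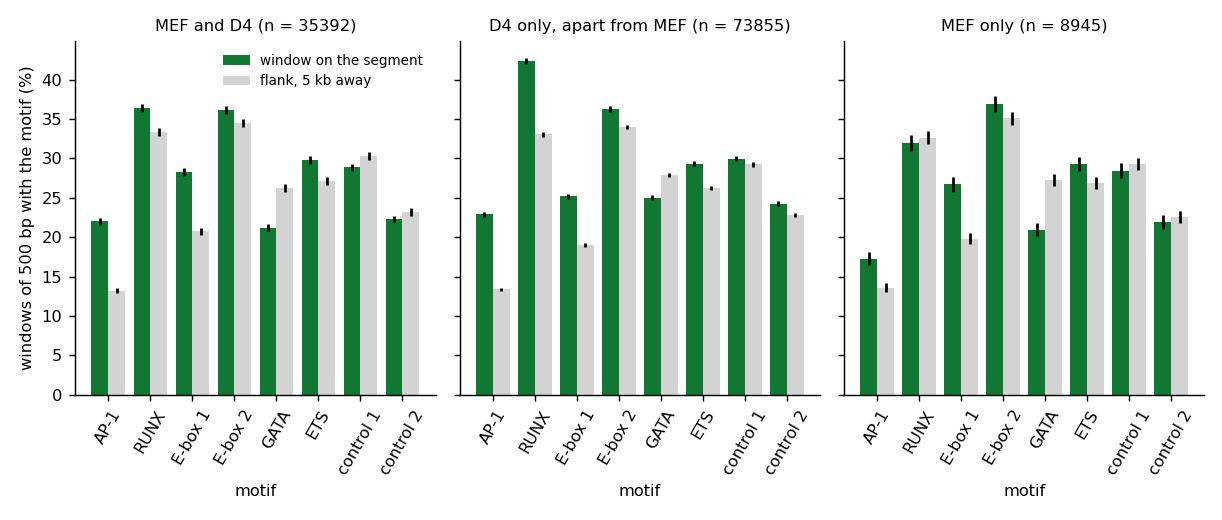
The share of 500 bp windows holding each set of letters (%) is plotted as bars for stretches shared by MEF and D4, gained in D4 apart from MEF, and lost, beside flanks 5 kb away (grey), with error bars for 95% Wilson intervals. E-box 1 is CAGCTG, E-box 2 is CAGATG, and controls 1 and 2 are TGGTGT and GTTGTG. The RUNX bar stands at 42.3% over a flank of 33.0% in the gained panel and at 32.0% over 32.6% in the lost panel.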

How the data were processed

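Chromatin was immunoprecipitated with an H3.3 antibody and sequenced on a Genome Analyzer IIx, and 1 library per time point was analysed. Per the study's methods the authors aligned reads to mm9 with STAR, dropped reads at more than one locus, and called peaks with HOMER in histone style against the input of each time point. Versions were not given in the sources used here. Each deposited list holds tags per peak and a normalised tag count, a signal scaled by the authors to 10 M tags per library, not divided by width and without input subtracted. It also holds a fold over input of at least 2 and a p-value of at most 1e-04, both deposited by the authors, which fix how weak a listed peak can be. Tags outside peaks were not used here, so a gene at 0 had no listed peak.

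From these lists, overlaps, domains (gaps up to 1000 bp), coverage and tags per protein-coding gene (GENCODE vM1 on the mm9 assembly, 22238 genes with 1000 bp upstream, bound from 250 bp covered) and sequence letters in mm9 were computed with Python 3.11.15, numpy 2.4.6, pandas 2.3.3 and scipy 1.17.1. Interval code was checked against bedtools 2.31.1 and tested on simulated data. Tags of a peak were shared out by the length inside a gene, and log2 differences used a pseudocount of 5. The log2 differences understate low genes. With 1 library per group no test was run. Groups followed the labels. Gene lists and members were chosen with earlier results of these data known. In the lists, Spi1, Gfi1 and Cebpd matched no gene and were left out. Named genes are the delivered factors, the 6 with the most D4 tags and no MEF peak, the 6 lost with the most MEF tags, the 6 largest increases and the 6 largest decreases in tags with equal numbers, the 5 largest increases in covered length, and in each list the 3 with the most D4 tags and any lost member. Genes overlapping another by more than 50% were passed over outside the lists. Other members and the widest domains were named after their values were seen. Alternatives were equal numbers of peaks by tags or tags per kb, equal covered length, fold over input of at least 3, the upper part of each list by tags, autosomes, other rules for genes and joining, pseudocounts, a tag minimum and motif windows of 200 bp. Joint widths, D0 in place of either library for widths, the splits of motif windows and the control letters were chosen after seeing the data. Some named genes and a culture component are not reported here.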

Additional observations from a re-analysis of the deposited data

How the results depend on the processing

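The wider domains of D4 kept their direction under every alternative. The larger covered length of D4 did so except under equal covered length, which fixes the ratio of lengths at 1.00 by construction. Equal numbers by tag count and equal covered length keep the D4 peaks with the most tags, which are its widest. The width ratios under these settings are therefore no independent check of the widening. From the values with all peaks (78194 peaks gained, 8464 lost, length ratio 4.65, width ratio 3.16, 4511 genes gained, 193 lost, 14058 genes at least 2-fold higher, 178 lower, 20 hematopoietic genes gained, 32.0% of gained length under D0), the values moved as follows. Equal numbers of peaks gave 27106 peaks gained, length ratio 3.94, width ratio 3.34, 534 genes lost, 478 lower and 35.8% under D0. By tags per kb they were 28544 peaks gained, 14394 lost, 3.56, 3.11, 696 genes lost, 642 lower, 13 hematopoietic genes and 37.1%. Equal covered length, which kept 2702 D4 peaks, gave 37 peaks gained, 41484 lost, length ratio 0.999986, width ratio 2.75, 177 genes gained, 8141 lost, 2478 higher, 7928 lower, 0 hematopoietic genes gained and 53.3%, so that the excess of genes gained over genes lost turned round. A fold over input of at least 3 gave 41908 peaks gained, 18.7, 6.59, 8875 genes gained, 348 lost, 317 lower, 38 hematopoietic genes and 46.5%. Peaks at or above the median tag count gave 36950 gained, 2531 lost, 5.26, 2.93, 126 genes lost and 36.4%. Autosomes gave a length ratio of 4.64, a width ratio of 3.15 and 32.2%. The width ratio was 2.98 without joining, 3.46 with gaps of up to 3 kb and 1.76 with D0 in place of MEF, which also gave a length ratio of 2.05 and 2585 genes gained. Genes lost numbered 850 by peak midpoints in annotated parts, 1060 by midpoints inside the gene and 46 with at least 1000 bp covered. Genes lower numbered 14 with a pseudocount of 20 and 19 with at least 20 tags in either library. The RUNX share over its flank, a ratio of 1.28, was 1.37 in windows of 200 bp, 1.17 over D0 peaks and 1.33 without them. The cause of these shifts was not tested beyond the number of peaks each setting keeps. No paired analysis was possible because each time point was 1 library. With no replicate, the spread between libraries of one time point is unknown.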

Other observations

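The X chromosome carried little H3.3 signal in these peak lists. Peaks covered 0.191% of it in MEF, 0.302% in D0 and 1.52% in D4, against 1.76% to 4.03% of each autosome in MEF and 8.26% to 17.6% in D4. The share of the X covered was below that of every autosome in all 3 libraries, and its ratio of D4 to MEF, 7.95, was above that of every autosome.

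Counted over all genes of a length group, the share gained was lowest for the shortest and the longest genes. Of genes under 5 kb 15.2% were gained, of those of 5 to 20 kb 23.9%, of those of 20 to 50 kb 24.6%, of those of 50 to 100 kb 18.9%, and of those of 100 kb or more 15.1%. The share already bound in MEF rose with length, from 24.2% of genes under 5 kb to 79.8% of those of 100 kb or more. The share bound in D4 rose from 38.6% to 94.0%. The gained shares include genes already bound in MEF in their totals and are not shares of the genes unbound in MEF. Among genes bound in both libraries, the median share covered went from 34.3% to 100% for genes under 5 kb and from 1.99% to 11.5% for those of 100 kb or more.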
